A study of Mus musculus with 2 samples.

Results

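The genes described here are 10 microRNA genes of mouse: the miR-106b/miR-25 cluster (Mir106b, Mir93 and Mir25), the miR-106a/miR-363 cluster (Mir106a, Mir18b, Mir20b, Mir19b-2, Mir92-2 and Mir363) and the single gene Mir92b. They were chosen by name, as the rows whose gene identifier carries one of these names in GENCODE release M21. All 10 were found among the 1973 microRNA genes of the tables, and all 10 had at least 10 counts in each library, as 347 genes did. The small RNA fraction of lungs from B6NCrl embryos was sequenced at embryonic day 16.5, an age at which the airway tree is still branching. There is a single group of healthy, untreated tissue with 2 biological replicates, and each library was made from a pool of embryos of both sexes. For replicate 2 the labels count 41 embryos in the pool, and for replicate 1 they give no number. With 1 library per pool, differences between pools and between library preparations cannot be told apart. With no second condition, the comparisons are among the genes and between the libraries.

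The libraries held 6376715 counts over microRNA genes in replicate 1 and 4123748 in replicate 2. Levels are given as CPM, the counts of a gene per 1e+06 counts over all microRNA genes of its library, and a count of 0 allows up to 0.470 CPM in replicate 1 and 0.727 CPM in replicate 2. Reads matching several loci, which are in no gene's count, were 30.0% of reads in replicate 1 and 31.8% in replicate 2. MicroRNAs typical of lung tissue were present, with the miR-200 genes of epithelium (5 of 5 detected) at 32596 CPM in replicate 1 and 33935 CPM in replicate 2. Mir126a of endothelium stood at 87277 CPM in replicate 1 and 79120 CPM in replicate 2, and the mesenchymal list (6 of 6 detected) at 76696 CPM in replicate 1 and 79065 CPM in replicate 2.

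Both clusters are paralogues of the miR-17~92 cluster, which arose by duplication of an ancestral locus in vertebrates. A microRNA guides the silencing complex to messenger RNAs that pair with its seed (bases 2 to 8), so genes with one seed are expected to share targets. The miR-17 seed is known for repressing cell-cycle inhibitors such as Cdkn1a. Mice without miR-17~92 die at birth with small lungs, whereas mice lacking only miR-106b/miR-25 or only miR-106a/miR-363 are viable. Mir92b is a separate gene with the miR-92 seed, known from neural progenitors and embryonic stem cells.

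The 10 genes carry 4 seeds, and their mature sequences are shown because the seed decides which of them count as one family. They were taken from the RefSeq annotation of GRCm38.p6, in which all 10 members were matched, and are the arm usually loaded as the guide. Capitals mark the seed.
miR-106b-5p (Mir106b): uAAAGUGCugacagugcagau
miR-93-5p (Mir93): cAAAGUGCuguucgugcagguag
miR-106a-5p (Mir106a): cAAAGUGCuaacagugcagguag
miR-20b-5p (Mir20b): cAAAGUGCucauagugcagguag
miR-17-5p (Mir17, for comparison): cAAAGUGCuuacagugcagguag
miR-18b-5p (Mir18b): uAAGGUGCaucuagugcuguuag
miR-19b-3p (Mir19b-2): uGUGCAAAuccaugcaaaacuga
miR-25-3p (Mir25): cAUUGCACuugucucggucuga
miR-92a-3p (Mir92-2): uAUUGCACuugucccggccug
miR-363-3p (Mir363): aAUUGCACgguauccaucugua
miR-92b-3p (Mir92b): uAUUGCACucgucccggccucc

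Outside the seed the members differ by different amounts. Counted from the 5′ end, with the miR-17~92 base first, miR-106a-5p differs from miR-17-5p by the single change U10A, and miR-20b-5p by U10C and C12U. miR-93-5p differs from miR-17-5p by U10G, A11U, C12U and A13C, all between the seed and the shared 3′ end. miR-92b-3p differs from miR-92a-3p by U10C and G21C over the 21 bases of the shorter sequence. miR-363-3p has the same seed but matches miR-92a-3p at only 10 of 21 bases. The counts are per gene, so the arms of a hairpin were not told apart.

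The guide arms of 2 members are not their own: miR-19b-3p is also made by Mir19b-1 and miR-92a-3p by Mir92-1, both of the miR-17~92 cluster. The hairpins of Mir92-2 and Mir92-1 are shown because they share a run of 22 bases (capitals) that covers the whole mature sequence.
Mir92-2: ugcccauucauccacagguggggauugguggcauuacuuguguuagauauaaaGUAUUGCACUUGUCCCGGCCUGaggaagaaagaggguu
Mir92-1: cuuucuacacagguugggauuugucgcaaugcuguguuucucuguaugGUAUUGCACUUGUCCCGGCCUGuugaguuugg
The first base after the shared run is A in Mir92-2 and U in Mir92-1. The hairpins of Mir19b-2 and Mir19b-1 share a run of 25 bases, 2 more than the mature sequence has. A read that lies inside such a run matches both genes, and how many such reads there were was not tested. The counts of Mir92-2 and Mir19b-2, and those of Mir92-1 and Mir19b-1, are therefore uncertain and may be too low. For the other 8 members the longest run shared with any other hairpin was 12 to 17 bases, shorter than the mature sequence.

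The loci lie on 3 chromosomes (mm10, GENCODE M21, all on the minus strand). Mir106b (ENSMUSG00000065514.1, chr5:138165737-138165818), Mir93 (ENSMUSG00000065527.1, chr5:138165523-138165610) and Mir25 (ENSMUSG00000065394.1, chr5:138165321-138165404) span 498 bases inside Mcm7, which encodes a subunit of the replicative helicase. Mir106b overlaps no Mcm7 exon, and Mir93 and Mir25 overlap only an annotated retained-intron transcript. The 6 genes of the miR-106a/miR-363 cluster span 875 bases of chromosome X at chrX:52741693-52742567, with Mir106a (ENSMUSG00000065456.1) first and Mir363 (ENSMUSG00000070106.1) last. Mir106a overlaps an exon of the noncoding gene Kis2, and the other 5 lie in no other annotated gene. Mir92b (ENSMUSG00000076255.2, chr3:89227116-89227198) lies in no other gene, 28 bases from the 5′ end of Mtx1 on the same strand. On the opposite strand it lies 279 bases from Thbs3 and 1859 bases from Muc1.

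The miR-106b/miR-25 cluster dominated the 10 genes. Its summed level was 13056 CPM in replicate 1 and 12976 CPM in replicate 2 (mean 13016 ± 56.6, SD, n = 2), or 1.31% of gene counts in replicate 1 (exact Clopper-Pearson 95% interval 1.30 to 1.31%) and 1.30% in replicate 2 (1.29 to 1.31%). The miR-106a/miR-363 cluster summed to 1311 CPM in replicate 1 and 1283 CPM in replicate 2 (mean 1297 ± 19.5). Mir92b alone was above that sum in both libraries, at 1719 CPM in replicate 1 and 2335 CPM in replicate 2 (mean 2027 ± 436). The sum holds the uncertain counts of Mir92-2 and Mir19b-2 and may be too low, so its order against Mir92b is uncertain too. All 10 genes together held 1.61% of gene counts in replicate 1 and 1.66% in replicate 2.

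The ratio of the miR-106b/miR-25 cluster to the miR-106a/miR-363 cluster was 9.96 in replicate 1 (95% interval 9.74 to 10.2) and 10.1 in replicate 2 (9.83 to 10.4). The gap between the clusters was far wider than the spread between libraries, and no test of it was run. It depends on how a cluster is summarised, being 11.7 without Mir19b-2 and Mir92-2 and 22.9 between the medians of the members. Reads missing from the counts of Mir19b-2 and Mir92-2 would instead lower the ratio, by an amount that was not tested. Against Mir92b, the miR-106b/miR-25 cluster was 7.59-fold higher in replicate 1 (7.44 to 7.75) and 5.56-fold higher in replicate 2 (5.44 to 5.68). All intervals here hold counting error only, as PCR copies of a molecule were not told apart. Folds between genes, here and below, are folds of reads. Whether different sequences were recovered equally well in a library was not tested.

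**Figure D1:**
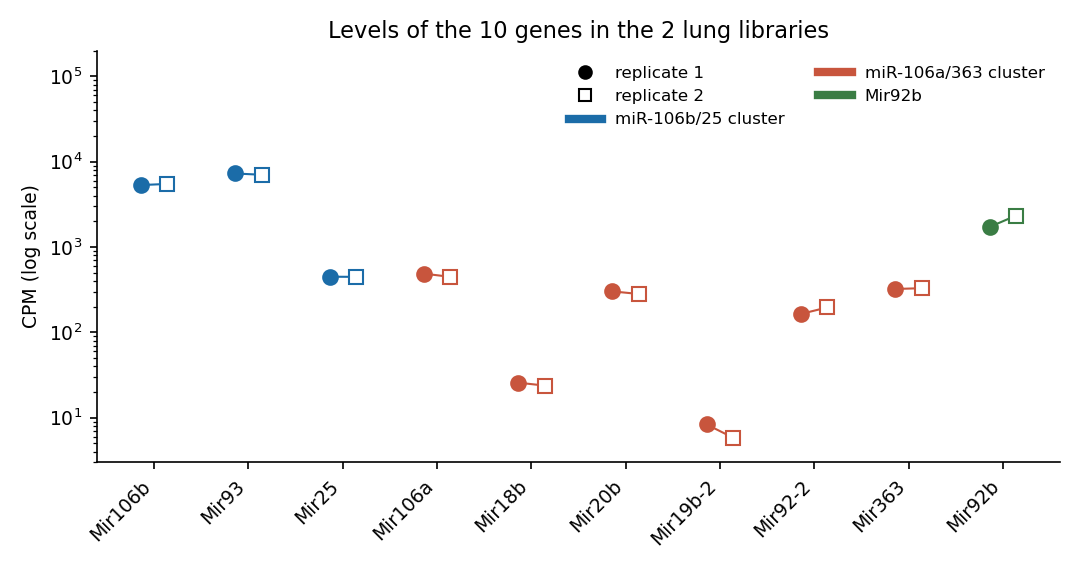
CPM (log axis) of each of the 10 genes, with replicate 1 as filled circles and replicate 2 as open squares joined by a line, coloured by locus. Mir93 and Mir106b lie highest, at 5326 CPM or more, Mir92b follows at 1719 CPM in replicate 1 and 2335 CPM in replicate 2, and the 6 genes of the miR-106a/miR-363 cluster between 5.82 and 488 CPM.

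Within the miR-106b/miR-25 cluster, 2 of the 3 genes carried nearly all counts. Mir93, with the miR-17 seed, was at 7281 CPM in replicate 1 and 7035 CPM in replicate 2, and ranked 25 among all 1973 genes by its mean. Mir106b, with the same seed, was at 5326 CPM in replicate 1 and 5494 CPM in replicate 2, rank 35. Mir93 was higher than Mir106b in both libraries, by 1.37-fold in replicate 1 (1.35 to 1.39) and 1.28-fold in replicate 2 (1.26 to 1.30). Mir25, which has the miR-92 seed, was at 449 CPM in replicate 1 and 447 CPM in replicate 2, and made up 3.44% of the cluster in replicate 1 and 3.45% in replicate 2. In reads, Mir93 thus lay 16.2-fold above Mir25 in replicate 1 and 15.7-fold above it in replicate 2. Both lie within the same 498 bases of Mcm7, and whether their sequences were recovered equally well was not tested.

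The miR-106a/miR-363 cluster was spread over more of its genes. Mir106a, the paralogue of Mir17 and Mir106b, was at 488 CPM in replicate 1 and 447 CPM in replicate 2 and gave 36.0% ± 1.67 of the cluster (SD, n = 2). Mir363, with the miR-92 seed, was at 322 CPM in replicate 1 and 329 CPM in replicate 2, and Mir20b, with the miR-17 seed, at 302 CPM in replicate 1 and 282 CPM in replicate 2. Together these 3 genes held most of the cluster, with Mir363 at 25.1% ± 0.740 and Mir20b at 22.5% ± 0.788.

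The remaining genes of that cluster were lower. Mir92-2 was at 165 CPM in replicate 1 and 196 CPM in replicate 2, from 1049 and 808 counts. Mir18b, with the miR-18 seed, was at 25.7 CPM in replicate 1 and 23.8 CPM in replicate 2, from 164 and 98 counts. Mir19b-2, with the miR-19 seed, was the lowest of the 10 at 8.31 CPM in replicate 1 and 5.82 CPM in replicate 2, from 53 and 24 counts. As given above, the counts of Mir92-2 and Mir19b-2 may be too low.

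Ordered by mean CPM, the genes run Mir93, Mir106b, Mir92b, Mir106a, Mir25, Mir363, Mir20b, Mir92-2, Mir18b and Mir19b-2. Mir106a and Mir25 overlapped between the libraries (447 to 488 CPM for Mir106a and 447 to 449 CPM for Mir25), and no other neighbours in this order did. Among all genes, the nearest in level to Mir93 were Mir21a above (8695 CPM ± 69.2) and Mir20a below (6808 ± 901, SD, n = 2). Mir106b lay between Mir652 (5435 ± 23.1) and Mir744 (5349 ± 301), and Mir92b between Mir484 (2042 ± 298) and Mir503 (2026 ± 21.4).

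Against the miR-17~92 cluster, position by position, the gap of the paralogues was uneven. Beside the 13016 CPM of miR-106b/miR-25 and the 1297 CPM of miR-106a/miR-363 (means), the miR-17~92 cluster as a whole was at 32966 CPM in replicate 1 and 29806 CPM in replicate 2. Mir106a averaged 467 CPM and Mir106b 5410 CPM, against 18856 CPM for Mir17, so that Mir17 was 40.3-fold ± 0.0812 above Mir106a and 3.49-fold ± 0.283 above Mir106b (SD, n = 2). The mature sequences of Mir106a and Mir17 differ by the single base given above, and whether reads with a mismatch were counted to the wrong gene was not tested. At the next position Mir18b averaged 24.7 CPM against 2994 CPM for Mir18, a gap of 121-fold ± 5.15. Mir20b averaged 292 CPM against 6808 CPM for Mir20a, 23.3-fold ± 1.92.

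Mir93 differed from the pairs above, since it was close in level to its paralogue. Mir20a over Mir93 was 1.02 in replicate 1 (1.01 to 1.04) and 0.877 in replicate 2 (0.862 to 0.892), so the order of this pair rests on the library. At the last shared position Mir25 averaged 448 CPM and Mir92-2 180 CPM, against 2675 CPM for Mir92-1, 5.97-fold ± 0.221 above Mir25 and 14.9-fold ± 1.33 above Mir92-2. Mir19b-2 and Mir19b-1 were both low. Mir19b-1 over Mir19b-2 was 1.40 in replicate 1 (0.968 to 2.03) and 1.17 in replicate 2 (0.652 to 2.10), intervals that include 1. The counts of Mir92-1, Mir92-2, Mir19b-1 and Mir19b-2 may be too low, so their levels and ratios are uncertain. Mir19a, the other gene with the miR-19 seed, was at 48.8 CPM in replicate 1 and 37.1 CPM in replicate 2.

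**Figure D2:**
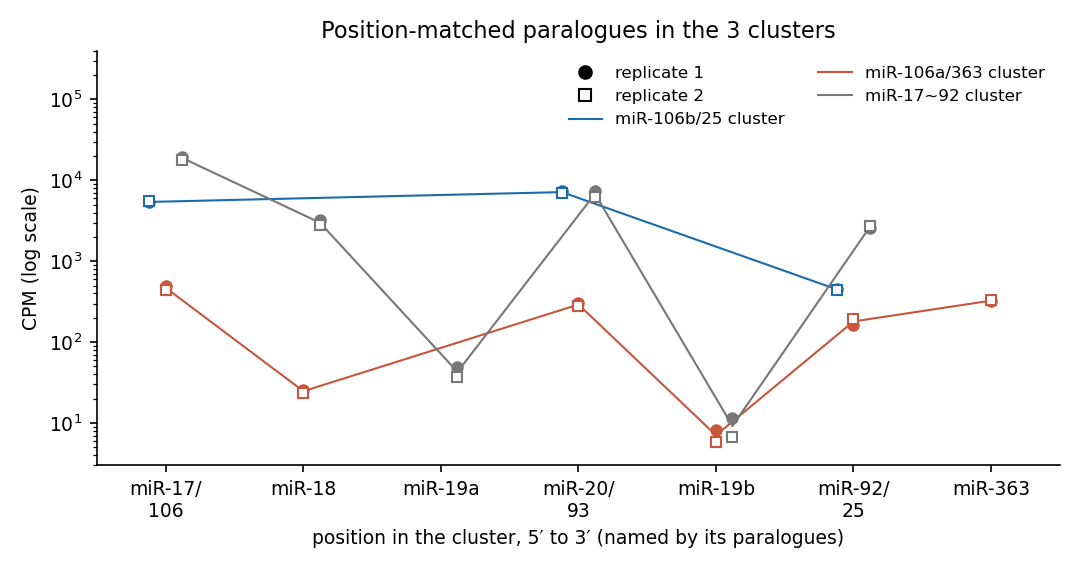
CPM (log axis) by position in the cluster from 5′ to 3′, with filled circles for replicate 1, open squares for replicate 2 and a line through the means of each cluster. The miR-106a/miR-363 line runs below miR-17~92 at every shared position but nears it at miR-19b, and the miR-106b/miR-25 line meets miR-17~92 at the miR-20/93 position. The counts of Mir19b-1, Mir19b-2, Mir92-1 and Mir92-2 may be too low.

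Grouped by seed, the members were mostly of the miR-17 family. Mir93, Mir106b, Mir106a and Mir20b held 83.3% of the members' counts in replicate 1 and 79.9% in replicate 2 (mean 81.6% ± 2.40, SD, n = 2). The miR-92 family (Mir92b, Mir25, Mir363 and Mir92-2) held 16.5% in replicate 1 and 19.9% in replicate 2. Mir18b held 0.160% in replicate 1 and 0.143% in replicate 2, and Mir19b-2 held 0.0517% in replicate 1 and 0.0351% in replicate 2.

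Measured against every gene with the same seed, the members held a larger share of the counts in the miR-92 family than in the miR-17 family. RefSeq lists 7 mouse genes with the miR-17 seed, all measured, and the 4 members held 33.1% of that family's counts in replicate 1 and 35.4% in replicate 2. Mir17 alone held 48.5% in replicate 1 and 48.2% in replicate 2, and Mir6383 had 0 counts in both libraries. Of the 7 genes with the miR-92 seed, the 4 members held 48.3% in replicate 1 and 53.0% in replicate 2, shares that rest on the uncertain counts of Mir92-1 and Mir92-2. Mir92-1 led that family with 47.5% in replicate 1 and 43.9% in replicate 2, and Mir92b was next with 31.3% in replicate 1 and 37.4% in replicate 2. Mir32 was at 231 CPM in replicate 1 and 192 CPM in replicate 2, and Mir367 had 0 counts in both libraries. In the miR-18 and miR-19 families the members were small. Mir18b held 0.797% in replicate 1 and 0.846% in replicate 2, and Mir19b-2 held 12.1% in replicate 1 and 11.7% in replicate 2. The miR-19 shares rest on the uncertain counts of Mir19b-1 and Mir19b-2.

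**Figure D3:**
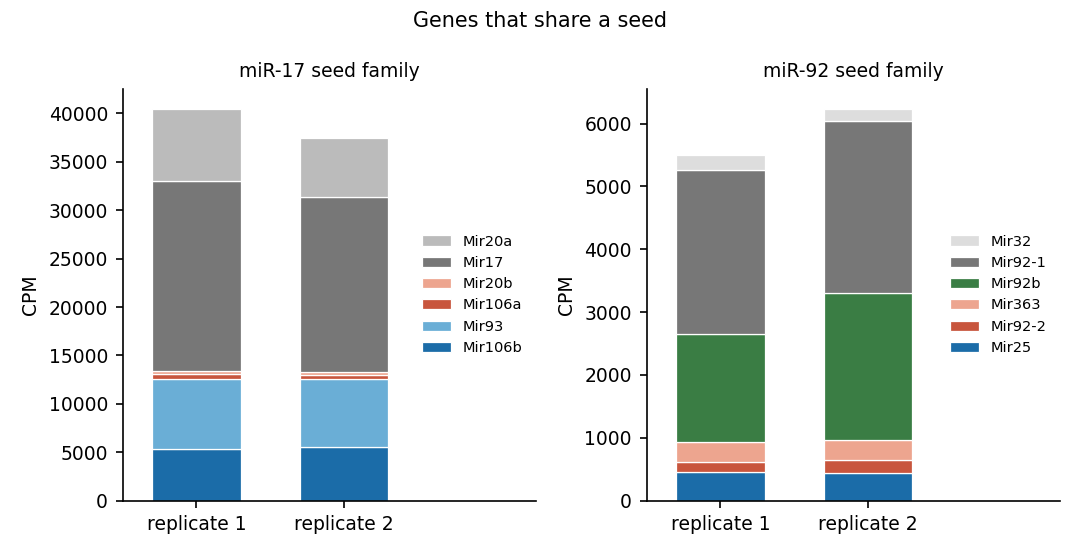
Stacked bars of CPM from 0 for the genes that share the miR-17 seed (left) and the miR-92 seed (right) in replicate 1 and replicate 2. The members fill 33.1% of the miR-17 bar in replicate 1 and 35.4% in replicate 2, and Mir92b is the segment that differs most between the miR-92 bars, 1719 CPM in replicate 1 and 2335 CPM in replicate 2.

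Between the libraries, Mir92b was the member that differed most beyond counting error. It was at 1719 CPM in replicate 1 and 2335 CPM in replicate 2, which do not overlap in counting error, and its log2 ratio of replicate 1 over replicate 2 was -0.44 (95% interval -0.48 to -0.40). That is 1.36-fold higher in replicate 2 (1.32 to 1.40), with an adjusted p of 4.44e-104 by a two-sided exact binomial test with Benjamini-Hochberg adjustment over 347 genes. Among the 99 genes with a mean of 1000 CPM or more, only 1 differed by a larger fold, while among all 347 detected genes, most of them lower in level, Mir92b ranked 45. This test compares the reads of these 2 libraries, not conditions, and holds no estimate of the spread between pools.

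Of the 10 members, 5 passed the same test, when 47.0% of all 347 detected genes did, so the share of members is close to that of all genes. Mir93 and Mir106a were higher in replicate 1, where 16.4% of all genes were called, and Mir92b, Mir92-2 and Mir106b were higher in replicate 2, where 30.5% were. That last split depends on the scale: TMM factors (45.5% of all genes called) put 21.3% higher in replicate 1 and 24.2% higher in replicate 2. Size factors from DESeq2 (44.1% called) put 22.5% higher in replicate 1 and 21.6% higher in replicate 2. Under both of these scales 5 members were called, but the call of Mir106b was lost and Mir20b was called instead, higher in replicate 1. With an exact test in edgeR that takes a common dispersion from these libraries, a biological coefficient of variation of 14.7%, no member passed (0 of 10), and 1.44% of all genes did. At an unadjusted p under 0.05 the same test found 0 of 10 members and 13 of 347 genes.

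The called differences other than that of Mir92b were small. Mir92-2 was 1.19-fold higher in replicate 2 (1.09 to 1.31, adjusted p = 0.000635 by the exact binomial test), from 165 CPM in replicate 1 and 196 CPM in replicate 2. Mir106a was 1.09-fold higher in replicate 1 (1.03 to 1.16, adjusted p = 0.00827 by the exact binomial test). Mir93 was 1.04-fold higher in replicate 1 (1.02 to 1.05) and Mir106b 1.03-fold higher in replicate 2 (1.01 to 1.05). The median difference in either direction was 1.08-fold over the 10 members and 1.12-fold over all 347 genes.

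The members that missed the threshold had these log2 ratios of replicate 1 over replicate 2. Mir25 was at 0.0053 (-0.08 to 0.09), Mir363 at -0.03 (-0.13 to 0.07) and Mir20b at 0.10 (-0.0037 to 0.21). Mir18b, at 0.11 (-0.26 to 0.49), and Mir19b-2, at 0.51 (-0.21 to 1.27), had wide intervals from their low counts. All 3 AAAGUGC members other than Mir106b lay above 0 under each scale.

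All 6 miR-17~92 genes passed the binomial test, when 47.0% of all 347 detected genes did. None of them passed edgeR's exact test. Mir20a was 1.21-fold higher in replicate 1 (1.19 to 1.23), Mir18 1.15-fold (1.12 to 1.18) and Mir17 1.09-fold (1.08 to 1.10). The low Mir19b-1, at 11.6 CPM in replicate 1 and 6.79 CPM in replicate 2, was 1.71-fold higher in replicate 1, and Mir19a 1.31-fold. Mir92-1 was 1.05-fold higher in replicate 2 (1.03 to 1.08). Genes of the miR-92 family did not share a direction: Mir32 was higher in replicate 1 (log2 ratio 0.26), Mir92b, Mir92-2 and Mir92-1 were higher in replicate 2, and Mir25 and Mir363 did not pass. With TMM factors and DESeq2's size factors Mir92-1 no longer passed.

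**Figure D4:**
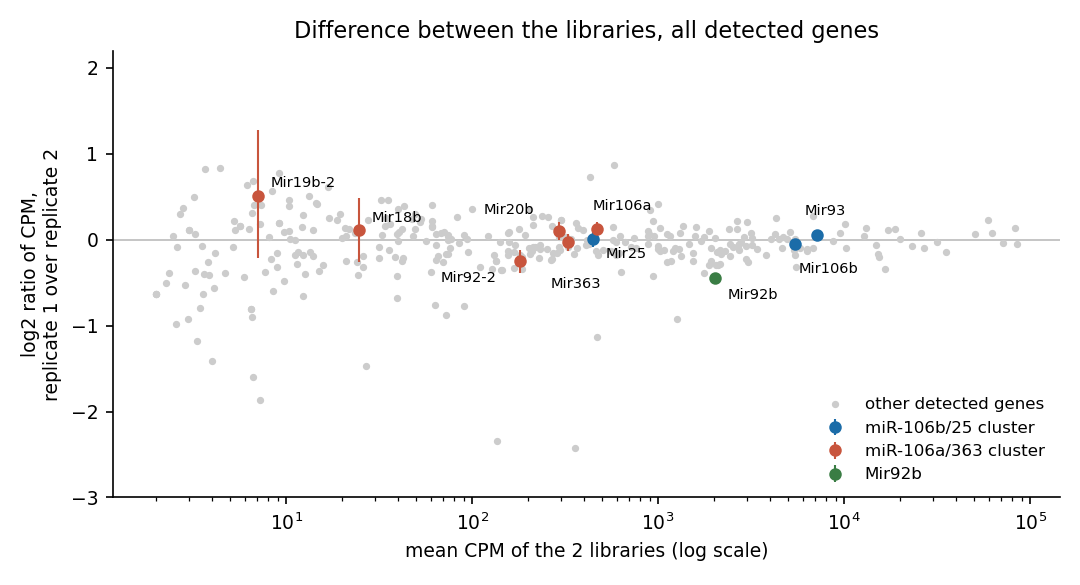
Log2 ratio of CPM, replicate 1 over replicate 2, against the mean CPM (log axis) for the 347 detected genes, with the 10 members coloured by locus and their 95% counting intervals as vertical lines. Mir92b lies at -0.44 farther from 0 than most genes of like level, while Mir93, Mir106b and Mir25 lie within 0.05 of 0.

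Markers of other tissues also differed between the libraries. The liver list (3 of 4 detected, none at 0) summed to 216 CPM in replicate 1 and 695 CPM in replicate 2, of which Mir122 was 111 CPM in replicate 1 and 601 CPM in replicate 2. The other 3 liver genes had higher CPM in replicate 1. The neural list (4 of 9 measured detected, Mir9-2 and Mir124a-1 at 0) summed to 324 CPM in replicate 1 and 416 CPM in replicate 2. The striated muscle list (4 of 7 measured detected, Mir1a-1, Mir133a-1 and Mir133a-2 at 0) summed to 1059 CPM in replicate 1 and 1178 CPM in replicate 2, but its genes went opposite ways. Mir206 was at 294 CPM in replicate 1 and 643 CPM in replicate 2, and Mir208a at 536 CPM in replicate 1 and 324 CPM in replicate 2. Reads matching several loci are in no gene's count, so numbered copies such as Mir1a-1, Mir133a-1, Mir9-2 and Mir124a-1 may have lost reads. A count of 0 for such a gene need not mean that its microRNA was absent. Sums of lists with such copies may be too low, by an amount that was not tested. The red cell list (3 of 3 detected) summed to 1047 CPM in replicate 1 and 660 CPM in replicate 2 and the leukocyte list (4 of 4 measured detected) to 1950 CPM in replicate 1 and 2114 CPM in replicate 2. By library totals, each list apart from the endothelial gene and the red cell list had its higher sum in replicate 2. On that scale more of all genes were also called higher in replicate 2 (30.5%) than in replicate 1 (16.4%). The epithelial and mesenchymal gaps were small, at 0.961 and 0.970 for replicate 1 over replicate 2. The lists were not summed on the other scales. Their part in the differences of the members was not tested. In whole tissue, fewer cells of a type and less RNA per cell cannot be told apart.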

How the data were processed

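The authors deposited raw counts of reads per microRNA gene, 1 table per library. They are built on an alignment to mm10 with GENCODE release M4, per the file headers, while aligner, counter, settings and trimming were not given in the sources used here. Of the count columns, the one without regard to strand was used: for each of the 1973 genes it is the sum of the sense and antisense columns. The members had 0 counts on the opposite strand in replicate 1 and 1 in replicate 2. The 4 summary lines for unmapped, multiply matching, unassigned and ambiguous reads stayed out of totals.

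CPM was computed over gene rows. Names and coordinates (1-based) come from GENCODE M21 on the same build, which matched 1894 of 1973 identifiers, and sequences from RefSeq on GRCm38.p6. Genes with at least 10 counts in each library (347) were tested by a two-sided exact binomial test, whose null share is that of replicate 1 in the summed library totals, at a Benjamini-Hochberg adjusted threshold of 0.05. Intervals are exact at 95%, and the limit for genes at 0 is 3 counts. These p-values compare reads of 2 libraries. Alternatives used edgeR 4.0.16 (TMM, exact test at the common dispersion) and the size factors of DESeq2 1.42.0 in R 4.3.3, with Python 3.11.15, scipy 1.17.1 and pandas 2.3.3 for the rest. The test was checked on simulated counts that held counting error alone, so the check does not cover spread between libraries. The members, the lists and the tests were chosen with earlier results of these data known. Named are all members, the miR-17~92 genes, every gene sharing a member's seed, the genes next in level to the 3 most abundant members, and marker lists. Signal tracks and alignments were not used here.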

Additional observations from a re-analysis of the deposited data

How the results depend on the processing

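Using the sense-strand counts, the summed level was 13374 CPM for the miR-106b/miR-25 cluster and 1333 CPM for the miR-106a/miR-363 cluster, and leaving the most abundant gene, Mir322, out of the total gave 14220 and 1417 CPM, because the total is smaller. The ratio of these clusters was 11.7 without the 2 members whose mature sequence is identical in another gene and 22.9 between medians. It was 9.96 to 10.1 when either library was left out. Reads missing from the counts of those 2 members would lower it, by an amount that was not tested. The miR-17 seed's share of member counts ranged from 79.9 to 83.3% when either library was left out. With edgeR's exact test 0 members and 5 of all genes passed, against 5 members and 163 genes by the binomial test, and edgeR's dispersion is estimated from the same libraries and holds their difference. The log2 ratio of Mir106b changed sign with DESeq2's size factors (0.0069), and that of Mir363 with TMM factors (0.0074), DESeq2's size factors (0.022) and edgeR's test (0.0074), since the scale shifts all genes. Of 80 ratios of members under the alternatives, 68 kept their direction and side of the threshold. That count includes alternatives with another count minimum, which cannot move a ratio, and the sense-strand counts, which are nearly the same for the members. All ratios that changed did so under TMM factors, DESeq2's size factors or edgeR's test. The comparison between libraries cannot be made with a library left out. Low counts limit Mir19b-2 and Mir18b, whose intervals are the widest.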
